A study of Mus musculus with 2 samples.

Results

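A small set of cells of the E7 mouse embryo carried transcripts of the node and of the axial mesendoderm, the midline cells that leave the anterior primitive streak. They were picked by their transcripts, as cell barcodes with at least 5 UMIs (unique molecular identifiers, 1 for each captured transcript) of Noto, Chrd, Foxj1 and Cer1 together, the gate genes. Barcodes with 3 or more UMIs of Mesp1 and Mesp2 were left out, as were those with 5 or more of Foxf1, Hand1 and Tdo2 or of Elf5, Wnt7b and Esrrb. Barcodes with 200 or more CPM (UMIs scaled to the total UMIs of the cell) of the visceral endoderm genes Afp, Ttr, Apoa1, Apoa4 and Rbp4 were left out too. These 68 cells were found among 1655 barcodes with at least 5000 detected genes and at most 10% mitochondrial UMIs. Because the gate genes chose the cells, their values are given as a description and support nothing.

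Conditional deletion of Yap1 in the epiblast was compared with control embryos, and embryos of each genotype were pooled into 1 10x 3′ library. The control embryos carried Sox2-Cre and 1 floxed Yap1 allele (Yap1 flox/+) and are labelled WT. This genotype is the one the single-cell methods of the study give, and its animal methods also name floxed littermates without Cre as controls. The Yap1 cKO embryos, called cKO below, carried Sox2-Cre and both floxed alleles (Yap1 flox/flox). The target of Sox2-Cre is the epiblast lineage and not extraembryonic tissue. YAP1 is the transcriptional co-activator of the Hippo pathway that works with TEAD factors. With 1 library per genotype no test between genotypes was possible, and differences between genotypes, pools and libraries cannot be told apart. All intervals are exact 95% intervals and cover counting error only.

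The node sits at the anterior end of the primitive streak. Its pit cells carry motile cilia whose beating sets up the left-right axis, and FOXJ1 together with RFX factors switches on the genes of these cilia. NOTO is a homeodomain factor of the node and notochord, and CHRD binds and blocks BMP ligands. The anterior mesendoderm that leaves the streak ahead of the node gives rise to prechordal plate and definitive endoderm, where CER1 and LEFTY1, both secreted inhibitors of Nodal signaling, are made.

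The control library held 38 of the cells among 791 barcodes, 4.80% (3.42 to 6.53%, Clopper-Pearson). The cKO library held 30 among 864, 3.47% (2.35 to 4.92%). The intervals of the shares overlap. Taken over the barcodes outside extraembryonic ectoderm and visceral endoderm, the shares were 7.39% (5.28 to 10.0%) and 5.65% (3.84 to 7.97%), which overlap as well. The limit on visceral endoderm genes took away the most cells, 20 control and 28 cKO barcodes that otherwise met the rule. Just outside the gate, with 3 or 4 gate UMIs, there were 4 control and 8 cKO barcodes, and just inside it, with 5 or 6, there were 5 and 0.

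The cells were deeply sequenced. Control cells held 36651 to 228381 UMIs with a median of 78216, and cKO cells held 30804 to 204838 with a median of 74728.5. Summed over the cells this gave 3202285 and 2364441 UMIs. No barcode of these cells occurred in the other library, where 2 of all barcodes were shared, and none of the cells was called a doublet by scrublet.

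Both libraries are labelled female, yet 409 of 791 control barcodes and 134 of 864 cKO barcodes held at least 2 UMIs of Y-linked genes and none of Xist, the RNA that coats the inactive X chromosome. Such barcodes are called Y-bearing, and those with at least 2 Xist and no Y-linked UMIs Xist-bearing. Among the node and mesendoderm cells 14 of 38 in the control and 1 of 30 in the cKO library were Y-bearing, and 23 and 27 were Xist-bearing. The remaining cells held UMIs of both. A control cell had 1 Y-linked and 24 Xist UMIs, a cKO cell had 4 and 1, and the deepest cKO cell had 15 and 31. Sex and genotype therefore moved together in these cells. Values in Xist-bearing cells alone are given for the cilia list between genotypes and not for the other lists.

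A pair of cKO cells is set apart here as holding mixed signals, and the cell with 4 Y-linked UMIs and 1 Xist UMI is not among them. The first, with 204838 UMIs the deepest of its library, held 15 Y-linked and 31 Xist UMIs, and 13 Noto, 65 Cer1 and 26 Sox17 UMIs. The second held 6018 UMIs of adult globin genes, 6.91% of its UMIs, where the next highest of these cells held 4. Both were Noto/Foxj1 cells as defined below. The shares and the cilia, node and endoderm medians between genotypes over all the cells are given with and without them. The other lists are given with them only. Without this pair of cells the cKO share of barcodes was 3.25%.

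Yap1 itself (chr9:7931999-8004596, GRCm38, reverse strand) followed the labels. It had 116 UMIs in 34 of the 38 control cells, 36.2 CPM, and 3 UMIs in 2 of the 30 cKO cells, 1.27 CPM. The ratio of cKO to control was 0.0350 (0.00712 to 0.105), and 0.0400 without the cells with mixed signals. In streak cells, taken as cells with at least 5 UMIs of T and Mixl1 together and fewer than 5 gate UMIs under the same other limits, the ratio was 0.0675 (0.0263 to 0.146). Visceral endoderm cells are taken here as those that met the gate but had 200 or more CPM of visceral endoderm genes, and extraembryonic ectoderm cells as those below the gate with 5 or more UMIs of Elf5, Wnt7b and Esrrb. The ratio was 0.391 (0.240 to 0.627) in the former and 0.732 (0.622 to 0.861) in the latter. Yap1 transcripts were thus few in these cells of the cKO library.

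The cells were divided into 2 classes by their gate genes, shown in the plot of Noto and Foxj1 UMIs against Cer1 UMIs. Cells with at least 3 UMIs of Noto and Foxj1 together are called Noto/Foxj1 cells here, and the remaining cells with at least 5 Cer1 UMIs are called Cer1 cells. These are ranges of gate counts and not cell types. Of the control cells, 15 (39.5%, 24.0 to 56.6%) were Noto/Foxj1 cells, 18 were Cer1 cells and 5 were neither. Of the cKO cells, 16 (53.3%, 34.3 to 71.7%) were Noto/Foxj1 cells and 14 were Cer1 cells, and 50% were Noto/Foxj1 cells without the cells with mixed signals. Near the limit of 3 UMIs, 3 control and no cKO cells held 2 UMIs of Noto and Foxj1, and 3 and 5 cells held 3 or 4.

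**Figure D1:**
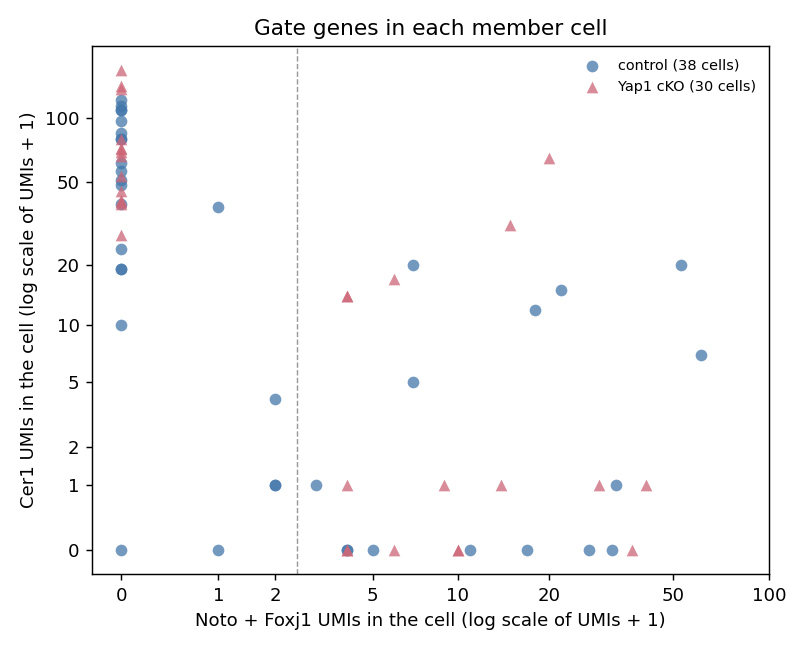
Each point is 1 of the 68 cells, with its Noto and Foxj1 UMIs on the horizontal axis and its Cer1 UMIs on the vertical axis, both on a log scale of UMIs + 1. Circles are control cells and triangles are cKO cells, the dashed line separates cells with 2 and 3 UMIs, and most cells with many Cer1 UMIs lie at 0 on the horizontal axis.

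Some cells held transcripts of both classes. Of the 14 control cells with at least 3 Foxj1 UMIs, 6 also held at least 5 Cer1 UMIs, and of the 14 such cKO cells 4 did. SOX17, the endoderm factor, and SOX2, kept in epiblast and neural cells, were measured outside the gate. At least 3 Sox17 UMIs were found in 19 control and 16 cKO cells, and at least 3 Sox2 UMIs in 11 and 10. No control cell held both, and 2 cKO cells did. Both of these cKO cells also held Y-linked and Xist UMIs. The first had 4 Y-linked UMIs and 1 Xist UMI, and the second, the deepest cKO cell, had 15 and 31. They are also among the 4 cKO cells with Foxj1 and Cer1 UMIs. Whether they are mixed droplets was not tested. In control Noto/Foxj1 cells no cell held 3 Sox17 UMIs, and 3 of the cKO Noto/Foxj1 cells did, among them the deepest cKO cell.

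The levels of the gate genes themselves follow from the choice of the cells and do not check the label. Noto (chr6:85423886-85428877, GRCm38) was at 81.6 CPM in control and 36.0 in cKO Noto/Foxj1 cells, and per cell it ranged from 0 to 25 UMIs with a median of 4 and from 0 to 13 with a median of 1.5. Foxj1 (chr11:116330704-116335399) was at 164 and 114 CPM. Chrd (chr16:20733127-20742384) was at 122 and 74.8 CPM. The node gene levels of both libraries overlap cell by cell.

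Cer1 (chr4:82881751-82885148) reached 705 CPM in control and 1136 in cKO Cer1 cells, with 10 to 121 UMIs per cell (median 58.5) and 28 to 167 (median 67.5). Lefty1 (chr1:180935022-180938400), which was not part of the gate, was at 201 and 121 CPM in Cer1 cells and at 11.3 and 17.3 CPM in Noto/Foxj1 cells. Over all the cells Lefty1 was higher than in streak cells in both libraries, at 110 against 0.985 CPM in the control and at 57.5 against 8.25 for the cKO. Foxa2, the forkhead factor of node and endoderm, had a UMI in 37 of 38 control and 27 of 30 cKO cells.

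Some defining genes of node and notochord had few or no UMIs. Shh, the signal made by notochord and prechordal plate, had 6 UMIs over the control cells and 2 over the cKO cells. Nog, a BMP antagonist of the node and notochord, had 5 and 0 UMIs, and Gdf1, the Nodal partner of the node, had 0 in both. For Gdf1 these counts cannot tell an absent transcript from one that was not counted. Cells with at least 38000 UMIs were thinned to that depth, which left out 1 control and 2 cKO cells. Shh was then seen in 2.70% of 37 control and 0% of 28 cKO cells. Foxa2 was then seen in 89.2% and 85.7%, against 0% and 1.03% of extraembryonic ectoderm cells, whose median depths were 85064 and 107983 UMIs. The cells carried node and anterior mesendoderm genes, with Shh and Nog close to the limit of what these counts can show.

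Motile cilia genes were higher in the cells than in streak cells. Of 45 genes listed for dynein arms, their assembly, radial spokes, tektins and the RFX factors, 38 had at least 20 UMIs over the cells of both libraries and were compared. At least 2-fold higher than in streak cells in both libraries were 32 of the 38, where 5.75% of all 10756 compared genes were. The median log2 ratio to streak cells was 4.18 in the control and 3.0 in the cKO library, beside 0.09 and 0.08 for all genes. In streak cells 11 of the 38 had no UMI in the control and 7 in the cKO library. With these set to 3 UMIs in the group, the limit that a count of 0 allows, the medians were 3.43 and 2.51 and the 32 genes stayed past 2-fold. The minimum of 20 UMIs was set on the node and mesendoderm cells, so genes could enter through the group where they are high. With the minimum set on these and streak cells together, a choice made after the data were seen, 33 of 39 genes passed, where 5.53% of all genes did, and the medians were 3.39 and 2.50. Summed over the list, the cells stood at 1016 CPM for the control and 846 for the cKO library, and streak cells at 274 and 330 CPM. The streak cells were of mixed makeup, with blood genes summing to 756 CPM for the control and 297 for the cKO library. Against streak cells with few blood gene UMIs the medians were 3.90 and 2.83.

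Within the set the cilia genes sat in the Noto/Foxj1 cells. Foxj1 counts helped to define this class and FOXJ1 switches on cilia genes, so the contrast of the classes is given as a description. In both libraries 30 of the 38 genes were at least 2-fold higher in Noto/Foxj1 cells than in Cer1 cells, again where 5.75% of all genes were. With genes at 0 in Cer1 cells set to 3 UMIs this was 28 of 38, where 5.36% of all genes were. Summed cilia levels were 2111 CPM in control Noto/Foxj1 cells and 272 CPM in control Cer1 cells, and 1205 and 282 CPM in the cKO library. Cells with more Foxj1 had a higher cilia sum, with a Spearman rho of 0.83 over the 38 control and 0.87 over the 30 cKO cells. Both values share the depth of the cell and Foxj1 was in the gate, so rho is given as a description.

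Rfx3 (chr19:27761721-28011166), the RFX factor of ciliated cells, was the most abundant gene of the list in Noto/Foxj1 cells, at 616 CPM for the control and 466 for the cKO library. It was not silent in Cer1 cells, where it was at 95.9 and 68.4 CPM. Pifo, a protein at the base of cilia, stood at 35.3 and 36.8 CPM over all the cells and at 0.328 and 0.25 CPM in streak cells, 1 UMI in each library. Tekt1, a filament protein inside cilium microtubules, stood at 17.5 and 26.2 CPM and in streak cells at 0.985 and 2.0 CPM. Short of 2-fold over streak cells in at least 1 library were Rfx3, Ccdc40, Hydin, Rsph1, Cfap43 and Mns1. Mns1, needed for the outer dynein arms of motile cilia, was at 116 and 125 CPM beside 110 and 78.0 CPM in streak cells.

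Promoters of 4 genes of this list are printed because they hold the short motifs of the factors named above. Promoters run from 250 bases before to 50 bases after a transcript start in RefSeq (GRCm38.p6) and are written 5′ to 3′ on the strand of the gene. Capitals mark an RFX half-site (GTTGCCA, or TGGCAAC when read on the other strand) or a forkhead core (TGTTTAC, or GTAAACA on the other strand). Both motifs were searched on both strands, and in these promoters they do not overlap.
Mns1 (chr9:72438279-72438578, forward): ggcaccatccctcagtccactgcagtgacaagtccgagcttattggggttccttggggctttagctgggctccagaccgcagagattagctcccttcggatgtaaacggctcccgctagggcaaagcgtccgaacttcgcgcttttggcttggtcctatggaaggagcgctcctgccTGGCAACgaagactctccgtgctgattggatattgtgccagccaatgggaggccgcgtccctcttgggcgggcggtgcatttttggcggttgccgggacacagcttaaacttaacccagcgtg
Mlf1 (chr3:67373847-67374146, forward): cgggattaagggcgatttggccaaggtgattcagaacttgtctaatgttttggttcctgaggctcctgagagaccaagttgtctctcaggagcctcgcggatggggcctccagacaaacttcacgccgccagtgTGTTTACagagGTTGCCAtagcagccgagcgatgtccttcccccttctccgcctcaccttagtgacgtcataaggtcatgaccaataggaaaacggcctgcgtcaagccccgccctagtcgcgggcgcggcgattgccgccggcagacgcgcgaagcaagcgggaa
Pifo (chr3:106001448-106001747, reverse, 1 of its listed starts): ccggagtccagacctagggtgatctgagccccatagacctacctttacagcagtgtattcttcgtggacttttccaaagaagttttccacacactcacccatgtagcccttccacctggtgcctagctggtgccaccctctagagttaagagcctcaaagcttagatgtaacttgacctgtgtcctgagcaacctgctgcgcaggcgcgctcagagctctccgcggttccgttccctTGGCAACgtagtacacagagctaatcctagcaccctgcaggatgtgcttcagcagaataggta
Tekt1 (chr11:72361833-72362132, reverse, 1 of its listed starts): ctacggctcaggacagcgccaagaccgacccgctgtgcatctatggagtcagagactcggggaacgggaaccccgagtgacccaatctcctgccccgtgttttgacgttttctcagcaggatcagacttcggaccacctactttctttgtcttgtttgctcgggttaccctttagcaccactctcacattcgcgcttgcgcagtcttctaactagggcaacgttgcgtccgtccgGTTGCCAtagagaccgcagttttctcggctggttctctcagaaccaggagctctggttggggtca

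Of the 45 genes, 36 had a promoter in the table. The RFX half-site was in 7 of these (19.4%), beside 5.02% of 27025 genes with a promoter. The forkhead core was in 2 (5.56%), beside 4.05% of all genes. Both motifs were in the promoters of 1 gene, Mlf1, and of 0.241% of all genes. These are matches of letters in a short window and say nothing of binding. Among those with no entry were Armc4, Lrrc6, Dnaaf1, Rsph1, Rsph4a, Cfap53, Tppp3 and Riiad1.

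**Figure D2:**
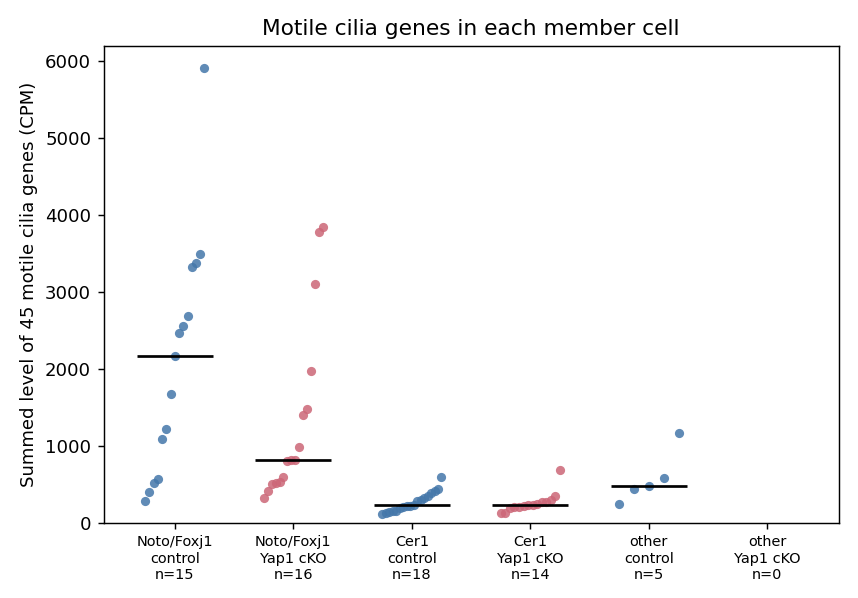
The vertical axis is the summed level of the 45 motile cilia genes in CPM, with 1 point per cell, sorted within a column, and a black line at the median of each class and library. Noto/Foxj1 cells have medians of 2167 CPM for the control and 812 for the cKO library and overlap widely, Cer1 cells lie below 700 CPM in both, and the last column is empty because no cKO cell was outside both classes.

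Between genotypes, the cilia list was lower in the cKO library. Over all the cells 11 of 38 genes were at least 2-fold lower and none was 2-fold higher, where 2.37% of all genes were lower and 1.72% higher. The median log2 ratio of cKO to control was -0.46, beside -0.01 for all genes, and -0.77 without the cells with mixed signals. In Xist-bearing cells alone it was -0.17. The summed list stood at a ratio of 0.832 (0.787 to 0.880).

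Restricting this to the Noto/Foxj1 cells, a choice made after the data were seen, widened the difference. Of 34 genes compared there, 20 were at least 2-fold lower in the cKO library, none was 2-fold higher and all 34 ratios were below 1. In these cells 3.88% of all genes were 2-fold lower and 1.81% higher, and 4889 of 9160 had a ratio below 1. The median log2 ratio was -1.28 for the list and -0.03 for all genes. The summed level was 2111 CPM for control and 1205 for the cKO cells, or a ratio of 0.571 (0.537 to 0.607). Per cell it ran from 287 to 5906 CPM in 15 control cells with a median of 2167, and from 318 to 3848 CPM in 16 cKO cells with a median of 812. The ranges overlap almost entirely, and the medians differ.

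The difference was recomputed in parts of these cells. The ratio was 0.556 without the cell with the highest cilia level in each library, and 0.536 without the cells with mixed signals. It was 0.482 in the 12 control and 11 cKO cells that held a Noto UMI. In Xist-bearing cells alone, 7 control and 14 cKO, it was 0.631 (0.585 to 0.680), and the 2 remaining cKO cells of this class held UMIs of both Xist and Y-linked genes. Every one of these ratios was below 1. The classes also differed in makeup. Cells with no Noto UMI and at most 1 T UMI numbered 2 of 15 in the control and 5 of 16 in the cKO library. The part of makeup and of the Foxj1 level, given above, in the difference was not tested.

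In the Cer1 cells the summed cilia list lay close to the control. The summed level was 272 CPM for the control and 282 for the cKO library, or a ratio of 1.04 (0.887 to 1.21). It was 0.861 (0.721 to 1.03) without the cell with the highest level in each library. The difference between the classes themselves was not tested.

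**Figure D3:**
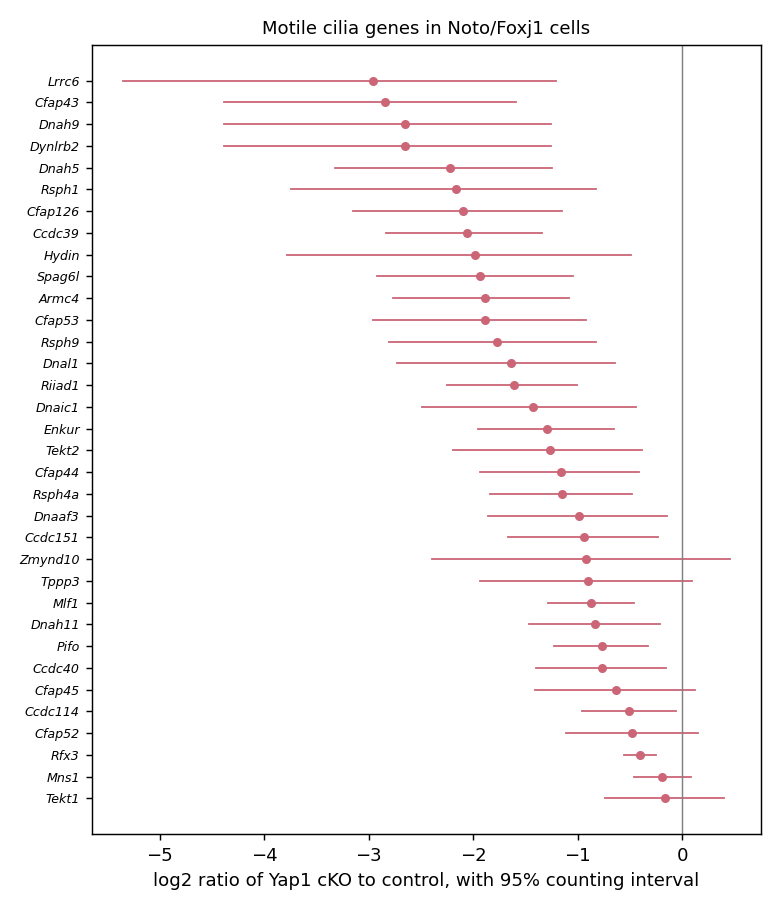
Each line is 1 motile cilia gene with at least 20 UMIs over the Noto/Foxj1 cells of both libraries. The point is the log2 ratio of cKO to control and the bar is its 95% counting interval, and all 34 points lie left of 0, with Lrrc6 and Cfap43 lowest and Mns1 and Tekt1 nearest to 0.

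The ratios of single genes varied, and several rest on small counts. Dnah5 (chr15:28203752-28472052), an outer arm heavy chain, was at 35.5 CPM in control and 7.62 in cKO Noto/Foxj1 cells, or a ratio of 0.214 (0.0999 to 0.422). Dnah9, another outer arm heavy chain, was at 21.8 and 3.46 CPM. Lrrc6, which helps to assemble dynein arms, was at 16.2 and 2.08 CPM, on 20 and 3 UMIs. These 3 are not a list of their own, and all 34 genes of the cilia list compared in this class were lower in the cKO library. Ccdc39 (chr3:33812362-33844310), part of the ruler that sets the spacing along the axoneme, had 75 UMIs in control and 21 in cKO cells and a ratio of 0.240 (0.141 to 0.394). Armc4, of the outer arm docking machinery, was at 0.270 (0.147 to 0.473).

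Rsph4a, Pifo, Rfx3, Mns1 and Tekt1 were closer to the control than the genes above, and Cfap43 was not. Rsph4a, of the radial spoke head, was at a ratio of 0.451 (0.280 to 0.714) and Pifo at 0.585 (0.427 to 0.799). Rfx3 was at 0.756 (0.681 to 0.840) on 763 and 673 UMIs, the most of the list. Mns1 was at 0.877 (0.727 to 1.06) and Tekt1 at 0.889 (0.601 to 1.32), and the intervals of both hold 1. Cfap43, a tether protein of the axoneme, was at 0.139 (0.0480 to 0.332) in Noto/Foxj1 cells and at 0.172 (0.0336 to 0.551) in Cer1 cells. In streak cells it was at 3.95 (2.46 to 6.64), the other way.

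Genes that every ciliated cell uses stood closer together. All 30 genes of the list for intraflagellar transport, the transition zone and the BBSome were compared. In both libraries 4 were at least 2-fold higher than in streak cells and 12 were so in Noto/Foxj1 against Cer1 cells, or 11 with genes at 0 set to 3 UMIs. In each comparison 5.75% of all genes were. The median log2 ratio of cKO to control was -0.03 over all the cells. None of the 30 was past 2-fold there, where 1.72% of all genes were higher and 2.37% lower. In Noto/Foxj1 cells the median was -0.35 and 22 of 29 ratios were below 1, beside 4889 of 9160 for all genes. In that class 1 gene was at least 2-fold higher and 1 lower, where 1.81% and 3.88% of all genes were. Ift74, an intraflagellar transport subunit, was the most abundant of these in control Noto/Foxj1 cells at 152 CPM.

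Only part of the node and notochord genes outside the gate could be compared. Of 19 genes 9 reached 20 UMIs, and 5 of these were at least 2-fold higher than in streak cells in both libraries, where 5.75% of all genes were. With the minimum of 20 UMIs set on these and streak cells together, 5 of 13 passed. None of the 9 was past 2-fold between genotypes over all the cells, where 1.72% of all genes were higher and 2.37% lower. The median log2 ratio was -0.06, or -0.29 without the cells with mixed signals. Calca, the calcitonin gene (chr7:114631478-114636357), stood at 221 CPM in control and 187 in cKO Noto/Foxj1 cells, with a ratio of 0.845 (0.712 to 1.0). It was at 7.88 and 10.3 CPM in streak cells and at 0 in visceral endoderm cells. T, the notochord and streak factor, was at 218 and 171 CPM, or a ratio of 0.785 (0.657 to 0.936). Bicc1, an RNA-binding protein of the node, was at 54.1 and 18.7 CPM, or a ratio of 0.346 (0.212 to 0.548). In Noto/Foxj1 cells 1 of 9 genes, Bicc1, was at least 2-fold lower and none was higher, where 3.88% and 1.81% of all genes were.

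Left-right genes as a list did not mark the Noto/Foxj1 cells. Of 12 compared none was at least 2-fold higher in Noto/Foxj1 than in Cer1 cells in both libraries and 2 were higher in Cer1 cells, where 5.75% and 2.77% of all genes were. The list summed to 682 CPM in control Noto/Foxj1 and 1068 in control Cer1 cells, and to 664 and 884 CPM in the cKO library, with Tdgf1, a Nodal co-receptor, the most abundant. Pkd1l1 (chr11:8826708-8973266), the flow sensor subunit of node cilia, stood at 86.4 CPM in control and 57.5 in cKO Noto/Foxj1 cells and at 2.30 and 2.0 CPM in streak cells. Its ratio between genotypes was 0.665 (0.493 to 0.894) in these cells and 0.998 (0.778 to 1.28) over all of them. Cfc1, a Nodal co-receptor, was at 83.2 and 47.8 CPM, and Nodal at 25.8 and 31.2 CPM. Dand5, the Nodal inhibitor of the node crown, had 8 and 11 UMIs and was not compared.

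The definitive endoderm list was higher in the Cer1 cells than in the Noto/Foxj1 cells. It summed to 4908 CPM in control and 5529 in cKO Cer1 cells, beside 2700 and 2595 CPM in Noto/Foxj1 cells. Visceral endoderm cells, which share many of its genes, stood at 5731 and 5711 CPM. Of 25 genes 23 were compared, and 16 of them were at least 2-fold higher than in streak cells in both libraries, where 5.75% of all genes were. The median log2 ratio to streak cells was 2.27 in the control and 2.76 in the cKO library, and 1.11 and 1.03 with Cer1 left out of the gate. In both libraries 8 were at least 2-fold higher in Cer1 than in Noto/Foxj1 cells, where 2.77% of all genes were. Sox17 (chr1:4490931-4497354) had 14 to 141 UMIs per control Cer1 cell with a median of 45.5 and 1 to 84 per cKO Cer1 cell with a median of 25.5. In the control Noto/Foxj1 cells it had 1 UMI in all. Hhex, of anterior endoderm, was at 186 and 227 CPM in Cer1 cells, and Cxcr4, a chemokine receptor of definitive endoderm, at 41.6 and 31.5 CPM.

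Over all the cells the endoderm list had a median ratio near 1 between genotypes, with no stable sign. The median log2 ratio was -0.05, or 0.11 without the cells with mixed signals, and 4 genes were at least 2-fold higher and none lower in the cKO library, where 1.72% of all genes were higher and 2.37% lower. In Cer1 cells, a choice made after the data were seen, 4 of 21 were at least 2-fold higher and none was lower, where 3.18% of all genes were higher and 3.36% lower. The list thus stood near the control as a whole and held single genes far from it.

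Trh, the thyrotropin-releasing hormone gene (chr6:92242061-92244650), was the gene of the endoderm list with the most UMIs in cKO Cer1 cells. It stood at 293 CPM for the control and 1124 for the cKO library, or a ratio of 3.84 (3.44 to 4.29). Per cell it had 2 to 96 UMIs with a median of 25.5 in the control and 2 to 224 with a median of 42 in the cKO library. The ranges overlap, and the upper cells lie in the cKO library. In Noto/Foxj1 cells Trh was at 340 and 310 CPM, or a ratio of 0.911 (0.795 to 1.04), and in streak cells the ratio was 1.64 (1.36 to 1.97). In epiblast cells the ratio was 1.14 (1.09 to 1.19). Trh was thus not confined to the Cer1 cells.

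Kitl, the ligand of the KIT receptor, was at 52.6 and 178 CPM in Cer1 cells, or a ratio of 3.39 (2.59 to 4.45). Foxa3, the forkhead factor of gut endoderm, was at 5.08 (2.06 to 14.2) on 7 and 20 UMIs. The keratin gene Krt8 was at 1.71 (1.51 to 1.94) and Epcam, an epithelial adhesion protein, at 1.60 (1.43 to 1.79). Sox17 was at 0.821 (0.732 to 0.920) and Hhex at 1.22 (1.02 to 1.46). Krt8, Epcam and the endoderm factors Foxa3 and Hhex were thus higher in the cKO Cer1 cells, and the endoderm factor Sox17 was lower.

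Organizer and prechordal genes went both ways between genotypes in Cer1 cells. Of 18 genes 16 were compared, and 13 of these were at least 2-fold higher than in streak cells in both libraries, where 5.75% of all genes were. In Cer1 cells 2 of the 16 were at least 2-fold higher and 1 lower in the cKO library, where 3.18% and 3.36% of all genes were, and the median log2 ratio was -0.20. The genes named next as lower were short of 2-fold. Lhx1 (chr11:84518284-84525535), a LIM homeodomain factor of head organizer tissue, stood at 1156 CPM in control and 612 in cKO Cer1 cells, or a ratio of 0.530 (0.482 to 0.583). It had 10 to 326 UMIs per control cell with a median of 76.5 and 3 to 123 per cKO cell with a median of 22.5. Gsc, an organizer homeodomain factor, was at 0.591 (0.492 to 0.707) and Otx2, a factor of the forebrain, at 0.567 (0.470 to 0.680). The same genes stood at 1.36 (1.18 to 1.57), 1.47 (1.15 to 1.88) and 0.862 (0.698 to 1.06) in Noto/Foxj1 cells.

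Dkk1 (chr19:30545863-30549665), a secreted Wnt inhibitor, was higher in the cKO library, at 145 CPM in control and 369 in cKO Cer1 cells, or a ratio of 2.54 (2.14 to 3.01). Per cell it had 0 to 65 UMIs with a median of 7 and 0 to 134 with a median of 15. In Noto/Foxj1 cells it had 14 and 86 UMIs, of which 30, 24 and 24 lay in 3 cKO cells. The cell with 30, the deepest cKO cell, held 121 of the 510 Lhx1 and 39 of the 183 Gsc UMIs of the cKO Noto/Foxj1 cells as well. Fst, which binds activins, was at 50.7 CPM in control and 5.43 in cKO Cer1 cells, or a ratio of 0.107 (0.0339 to 0.260), and at 2.01 (1.63 to 2.50) in Noto/Foxj1 cells. Mixl1, a streak and endoderm factor, was at 0.351 (0.229 to 0.521) in Cer1 cells, and Lefty1 at 0.599 (0.479 to 0.746).

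**Figure D4:**
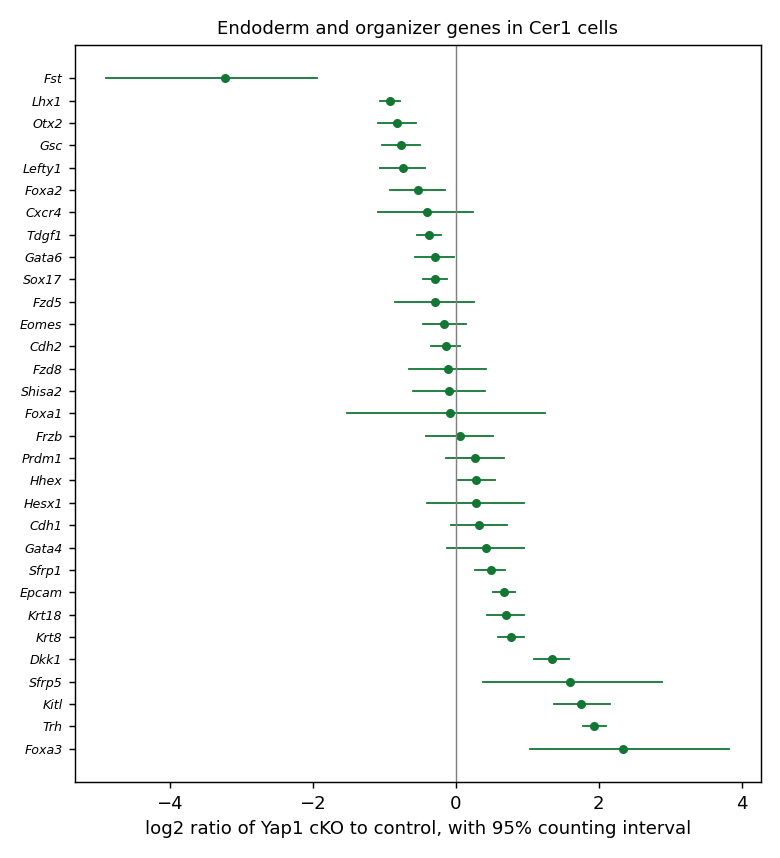
Each line is 1 gene of the definitive endoderm and organizer lists with at least 20 UMIs over the Cer1 cells of both libraries, with the log2 ratio of cKO to control as the point and its 95% counting interval as the bar. Fst and Lhx1 lie farthest left of 0 and Foxa3, Trh and Kitl farthest right.

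Cer1, Lefty1, Hhex and Dkk1 are also genes of the anterior visceral endoderm. Of 11 genes listed for that tissue, which include Lefty1, Hhex, Dkk1, Lhx1 and Otx2, 10 were at least 2-fold higher than in streak cells in both libraries, where 5.75% of all genes were. Against visceral endoderm cells 5 of the 11 were at least 2-fold lower in both libraries, where 7.25% of all genes were, and Lefty1 was higher. Some of the genes higher in cKO Cer1 cells were also counted in the visceral endoderm cells with gate genes. Trh stood there at 285 CPM in control and 593 in cKO cells. Its control level was not above that of control Cer1 cells. Dkk1 stood at 1220 and 1106, Kitl at 252 and 246 and Krt8 at 979 and 985. Foxa3, Epcam and Hhex, also higher in cKO Cer1 cells, are not given for visceral endoderm cells.

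The defining markers of visceral endoderm were low in the Cer1 cells. The limit of 200 CPM of visceral endoderm genes parted these cells from the visceral endoderm cells. Low levels of related markers therefore follow in part from that limit and are given as a description. The list of 14 markers outside the limit summed to 421 CPM in control and 465 in cKO Cer1 cells, of which Gpc3, also found in streak cells, made up 397 and 401. Without Gpc3 the other 13 summed to 24.4 CPM in control and 64.1 in cKO Cer1 cells. Their ratio was 2.62 (1.73 to 4.02) on 40 and 59 UMIs. Summed over the class, these markers were thus higher in cKO Cer1 cells, as were Trh, Kitl, Dkk1 and Krt8. In the visceral endoderm cells the list summed to 5724 and 7341 CPM. Of its 4 genes with at least 20 UMIs, 3 were at least 2-fold lower in the node and mesendoderm cells than in those cells in both libraries, where 7.25% of all genes were. At 0 in control Cer1 cells were 6 of the 14, among them Apob, Amn and Hnf4a, and at 0 in cKO Cer1 cells were 4, among them Apom and Lrp2. Apob, an apolipoprotein, had 1 UMI over all control and 3 over all cKO cells, and stood at 735 and 910 CPM in visceral endoderm cells. Sfrp5, of the anterior list, was at 6.11 and 18.5 CPM in Cer1 cells beside 160 and 140 CPM in visceral endoderm cells. The highest level of the genes of the limit in 1 Cer1 cell was 36.1 CPM for the control and 156 for the cKO library. Yap1 had 59 UMIs in 16 of the 18 control Cer1 cells and 0 in the 14 cKO Cer1 cells, beside a ratio of 0.391 in visceral endoderm cells. The part of visceral endoderm in the differences of the Cer1 cells was not tested.

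Markers of blood and vessels were low too. The list of 10 summed to 23.7 CPM in control and 30.9 in cKO cells, and Fli1, Cdh5, Gfi1b, Hbb-bh1 and Hba-x were at 0 in both. Some epiblast genes were higher in the Noto/Foxj1 cells. Of 14 such genes 6 were at least 2-fold higher in Noto/Foxj1 than in Cer1 cells in both libraries, where 5.75% of all genes were. The summed list differed less, at 2558 CPM in control Noto/Foxj1 and 2147 in control Cer1 cells, and 2387 and 1801 CPM in the cKO library. Utf1 was at 238 and 215 CPM in Noto/Foxj1 cells and at 12.2 and 5.43 CPM in Cer1 cells, and Sox2 at 62.2 and 59.6 CPM beside 0.611 and 2.17 CPM. Few cells carried the Utf1 level. Per Noto/Foxj1 cell it had 0 to 88 UMIs with a median of 12 in the control and 0 to 85 with a median of 7.5 in the cKO library. The 3 control cells of the class with no Noto UMI held 131 of 294 Utf1 UMIs, and the 5 such cKO cells held 206 of 311.

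**Figure D5:**
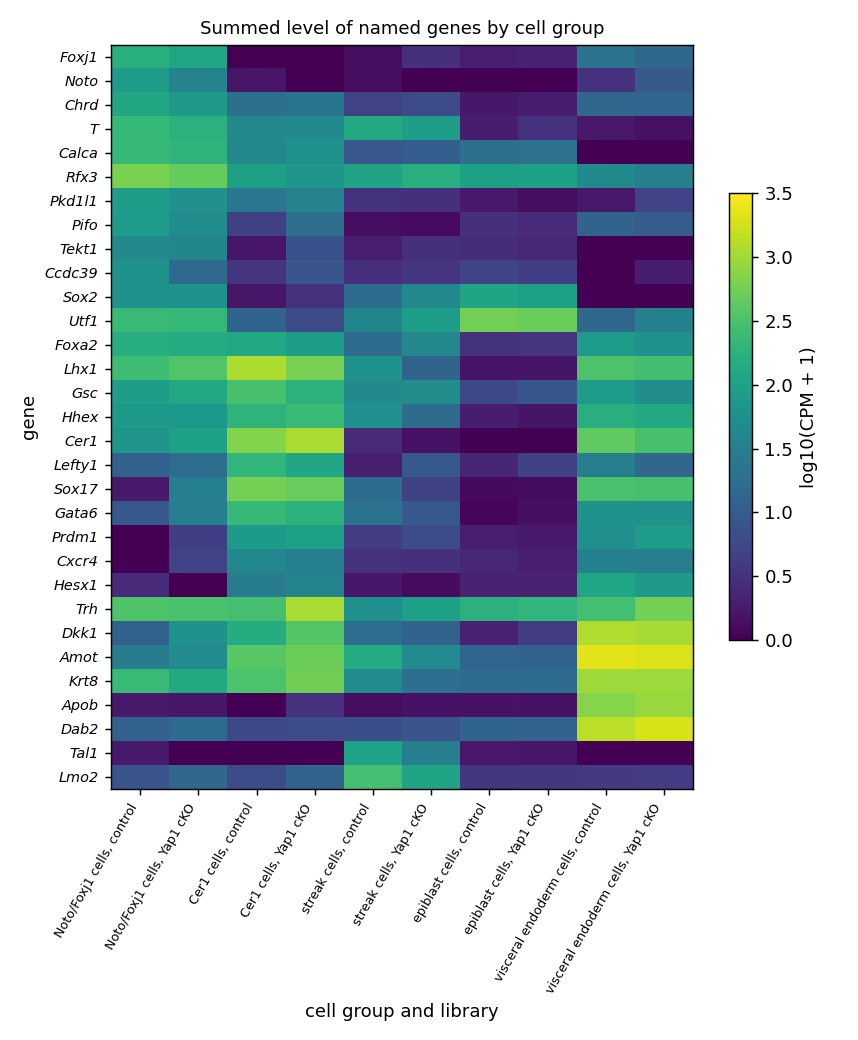
Summed level of 31 genes, chosen after the data were seen, as log10(CPM + 1) in colour, by gene (vertical) and by cell group and library (horizontal). Cilia and node genes are bright in the Noto/Foxj1 columns, Sox17 and Cer1 in the Cer1 columns, and Apob and Dab2 in the visceral endoderm columns.

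Some genes of the YAP and TEAD pathway were lower in the cKO library. Of 18 genes compared, Yap1 included, 5 were at least 2-fold lower, where 2.37% of all genes were, none was higher and the median log2 ratio was -0.46. In Noto/Foxj1 cells the median was -0.56, with 11 of 15 ratios below 1, beside 4889 of 9160 for all genes. At least 2-fold lower were 2 of the 15 and none was higher, where 3.88% and 1.81% of all genes were. In Cer1 cells the median was 0.10, with 9 of 16 ratios above 1, beside 4583 of 8738 for all genes. At least 2-fold lower were 3 of the 16 and none was higher, where 3.36% and 3.18% of all genes were. The summed list stood at 1019 CPM for the control and 1114 for the cKO library, of which Amot made up 389 and 516. The difference between the classes was not tested. Amotl2, a junction protein and YAP target, was at 21.2 CPM in control and 8.46 in cKO cells, or a ratio of 0.398 (0.229 to 0.664). Ccn2, a secreted matrix protein and YAP target, was at 0.271 (0.0673 to 0.809) on 20 and 4 UMIs, and its relative Ccn1 at 0.598 (0.375 to 0.931). Tead4 was at 0.412 (0.149 to 0.992) and Lats2, a kinase of the pathway, at 0.435 (0.181 to 0.949). Wwtr1, which codes for the YAP relative TAZ, stood at 16.5 and 18.6 CPM, or a ratio of 1.12 (0.736 to 1.71).

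Over all genes, the 15 with the highest ratio to streak cells, ranked by the lower of the ratios of the libraries, included 5 of the cilia list, Cfap44, Cfap45, Cfap52, Pifo and Spag6l. Ermn, Zbbx, Cfap44 and Pga5 were at 0 in streak cells of both libraries, so no ratio is given. Most others had 1 or 2 UMIs in the streak cells of a library, so their intervals are wide. The control ratio of Pifo was 107 (18.9 to 4282), and its cKO ratio was 147 (25.7 to 5879). Foxa1, a forkhead factor of endoderm, was at 35.2 (5.94 to 1427) in the control and at 0 in cKO streak cells, and so was Spag6l, of the central pair of motile cilia, at 43.8 (7.47 to 1765). Dpyd, of pyrimidine breakdown, was at 73.7 (20.1 to 614) and 28.8 (13.5 to 73.1), and Cfap52 at 47.6 (8.15 to 1915) and 24.2 (7.76 to 122). The remaining genes were 1110017D15Rik, Cfap45, Dnajb13, Efcab1, F5, which codes for coagulation factor V, and Drc1, of the dynein regulatory complex.

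The genes farthest apart between genotypes over all the cells showed how few cells can set a ratio. Hba-a1 and Hba-a2, adult globins, had 1024 and 700 UMIs in cKO cells, of which 1022 and 696 lay in 1 cell with mixed signals. Tenm1 had 72 UMIs, of which 38 and 25 lay in 2 cells. More evenly spread were Lpar1, a lysophosphatidic acid receptor, at a ratio of 2.68 (1.91 to 3.81) in 23 control and 20 cKO cells, and Dkk1 and Trh. Rab23, a negative regulator of Hedgehog signaling, was at 2.21 (1.53 to 3.22), and at 1.71 without the cell with the most UMIs in each library.

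Lowest after Yap1 were Gm37245 at 0.339 (0.205 to 0.539) and Arl4d at 0.339 (0.196 to 0.558). Snx29 was at 0.357 (0.218 to 0.565), with 44 of its 91 control UMIs in 1 cell. Trps1, Col23a1, Chn2 and Rreb1 followed between 0.409 and 0.435. Rreb1, a zinc finger factor, was the best counted of these, with 311 UMIs in 35 control cells and 100 in 26 cKO cells, and stood at 0.302 in Cer1 and 1.05 in Noto/Foxj1 cells. Arl4d stood at 0.283 and 3.86 in these classes, and Col23a1 at 0.342 and 1.35. Gm37245, Snx29, Trps1 and Chn2 were below 1 in both. Over all the cells 1.72% of 10756 genes were at least 2-fold higher and 2.37% at least 2-fold lower in the cKO library.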

How the data were processed

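Per the labels and the methods of the study, embryos were genotyped, pooled by genotype and dissociated (with trypsin per the labels and TrypLE per the methods), and libraries were made with a 10x Chromium 3′ v3.1 kit. The authors counted UMIs per gene and cell barcode with Cell Ranger 7.1.0 and mm10 (submitters' processing notes), and the deposited values are raw UMI counts of 32285 genes without normalization. The study's own doublet calls, soupX correction and clusters were not used here. From 1829 control and 1897 Yap1 cKO barcodes, those with at least 5000 genes and at most 10% mitochondrial UMIs were kept, and scrublet (scanpy 1.11.5) was run on each library.

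For each group and library, UMIs were summed over cells and scaled to the group's own UMI total as CPM. Intervals are Poisson for CPM, conditional binomial for ratios and Clopper-Pearson for shares. A gene was compared if it had 20 UMIs or more in these cells over both. Percentages of cells with a UMI were taken after thinning to 38000 UMIs unless marked as unthinned. Cells below that depth were left out of them, and counts of cells with a UMI are unthinned. The script was tested on simulated data. Python 3.11.15, numpy 2.4.6, scipy 1.17.1, pandas 2.3.3 and matplotlib 3.10.9 were used, and coordinates are from GENCODE M21.

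The cells, lists and comparisons were chosen with earlier results of these data known. Genes outside the lists were named as the 15 with the highest ratio to streak cells (at least 50 UMIs) and the 8 highest and 8 lowest ratios between genotypes (at least 100 UMIs, interval without 1, same direction without the top cell of each library). Gate genes, Xist, Tsix and Y-linked genes were left out of both, and a few genes that these rules or the lists name are not reported here. The alternatives were other limits on genes, mitochondrial share, gate and visceral endoderm genes, the gate without Cer1, doublets left out, Xist-bearing or Y-bearing cells alone, other scalings, a minimum of 50 UMIs, a fold of 1.5 and no thinning. Those that follow the cell classes, the mixed cells and the blood genes of streak cells were chosen after seeing the data.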

Additional observations from a re-analysis of the deposited data

Results flagged for a closer look

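Some genes had a ratio of Yap1 cKO to control whose interval lay on one side of 1 in the node and mesendoderm cells and on the other side in streak cells. The difference between the groups was not tested, and the streak cells of the control library held more blood genes, with Lmo2 at 280 CPM beside 111 CPM in the Yap1 cKO library. Lower in the node and mesendoderm cells and higher in streak cells were Lefty1 (0.523 and 8.38, 2.63 to 42.7, on 3 control UMIs), Foxa2 (0.819 and 2.55), Fgf8 (0.771 and 2.45) and Cfc1 (0.796 and 1.88), which belong to Nodal signaling, left-right patterning or the anterior streak. The cilia genes Cfap43 (0.172 and 3.95) and Dync2h1 (0.701 and 1.62) and the epiblast and head genes Otx2 (0.594 and 1.26), Fgf5 (0.817 and 1.25) and Sall4 (0.865 and 1.22) had the same order, as had Chn2 (0.412 and 1.92). Armc4 was at 0.419 in the node and mesendoderm cells and in streak cells had 0 UMIs for the control and 9 for the Yap1 cKO library. The opposite order was found for Krt8 (1.11 and 0.370), Krt18 (1.24 and 0.690), Kitl (2.14 and 0.226), Tbx3 (5.15 and 0.440) and Lmo2 (2.03 and 0.395).

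Among barcodes with fewer than 5000 genes, which no comparison used, 2 control and 1 Yap1 cKO barcodes met every other limit of the rule.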

How the results depend on the processing

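Of 192 recomputed values under 24 settings 174 stayed within the spread of the reported value and 18 moved, and the cause was not tested. The endoderm median between genotypes, -0.05 (log2) with a spread across 0, changed sign. It became 0.11 with the mean of each cell's CPM and 0.05 without the deepest cell of each library. In Cer1 cells it was 0.27, and without the mixed cells 0.11. Other medians changed sign in Cer1 cells too, among them cilia (0.025 on 8 genes) and YAP and TEAD (0.10). With Cer1 left out of the gate, 2.78% of control and 1.97% of Yap1 cKO barcodes were members, 68.2% and 94.1% of these were Noto/Foxj1 cells, and the endoderm medians against streak cells (log2) were 1.11 and 1.03. With Xist-bearing cells alone the control share was 6.91% and the cilia median between genotypes was -0.17. With Y-bearing cells alone, which leaves out cells with any Xist UMI, 57.1% of the control members were Noto/Foxj1 cells, the Yap1 cKO share was 0.746% and, on 1 member, 0% of it were Noto/Foxj1 cells, so no medians were taken. The share of genes past 2-fold between genotypes was 4.09%, and 1.33% at a minimum of 50 UMIs and 13.4% at 1.5-fold. The cilia median of -0.46 became -1.28 in Noto/Foxj1 cells, -1.56 in those with a Noto UMI, -1.20 in the Xist-bearing ones and -1.39 without those with mixed signals. Unthinned, Foxa2 was seen in 97.4% of control members. No paired analysis was possible because each genotype has 1 library. With 1 library per genotype no replicate could be left out, and depth limits statements on genes under 20 UMIs.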
